A study of Mus musculus with 16 samples.

Results

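The breakdown of the branched-chain amino acids leucine, isoleucine and valine was followed in white fat through 10 genes: Bcat2, Bckdha, Bckdhb, Dbt, Bckdk, Ivd, Mccc1, Mccc2, Acadsb and Hibch. All probes annotated to these symbols were taken, which gave 12 probes of 9 genes among 25697 probes on the array, with none listed for Mccc2. Of these, 10 probes of 8 genes were tested among 13759 probes of 9543 genes, because they were detected on at least 4 of the 16 arrays. The single Hibch probe, ILMN_2635150, was detected on 1 array, and the Dbt probe ILMN_1242012 on 2 arrays, so neither was tested.

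RNA came from epididymal white fat of mice 4 to 5 months old. The sample titles give a mixed c57b6/sv129 background for the wild-type mice and name no background for the Fgf21-KO mice. The groups were Fgf21-KO mice given rosiglitazone, Fgf21-KO mice given vehicle, wild-type (WT) mice given rosiglitazone and WT mice given vehicle. All animals, the controls included, had eaten a high-fat diet for 10 weeks and were obese, so no lean fat was analysed here, and rosiglitazone was given at 10 mg/kg for the last 2 weeks. Each group held 2 pools of RNA from 2 mice each, every pool was hybridised to 2 arrays, and all means and SDs below are over the 2 pools of a group (n = 2).

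Branched-chain amino acids are first stripped of their amino group, in mitochondria by BCAT2. The resulting keto acids are then committed to oxidation by the branched-chain keto acid dehydrogenase complex, which the kinase BCKDK switches off by phosphorylation. From there the carbon skeletons run through separate branches, to acetyl-CoA and ketone bodies from leucine and to propionyl-CoA from valine and isoleucine. White fat is known as a tissue that oxidises these amino acids, and their products feed fat synthesis in adipocytes. Rosiglitazone is a ligand of PPARG, a nuclear receptor needed for fat cell identity. The hormone FGF21 is made in liver and fat.

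The sequences just upstream of 4 genes are shown because the brightest probes of Bcat2, Bckdhb and Mccc1 were higher under the drug in every pool of both genotypes, and that of Ivd was lower in Fgf21-KO pools under both treatments; they were picked after those values were seen. Each run gives the 250 bases before the first listed transcript start in RefSeq (GRCm38.p6), 5′ to 3′ on the strand of the gene. Capitals mark AGGTCA, the core element bound by nuclear receptors such as PPARG, and CCAAT, a general promoter box, each on either strand (TGACCT and ATTGG on the other).

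Bcat2 (chr7:45569903-45570152, plus strand): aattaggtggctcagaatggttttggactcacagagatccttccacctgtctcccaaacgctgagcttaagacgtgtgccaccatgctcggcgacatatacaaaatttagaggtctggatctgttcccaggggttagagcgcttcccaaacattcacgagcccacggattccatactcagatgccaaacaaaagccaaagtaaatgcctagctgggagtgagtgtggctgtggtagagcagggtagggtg
Bckdhb (chr9:83924887-83925136, plus strand): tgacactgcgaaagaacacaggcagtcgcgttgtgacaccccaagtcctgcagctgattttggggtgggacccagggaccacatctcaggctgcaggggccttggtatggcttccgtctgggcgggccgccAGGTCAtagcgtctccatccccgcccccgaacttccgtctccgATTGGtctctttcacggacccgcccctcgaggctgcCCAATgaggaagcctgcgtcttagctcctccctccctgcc
Ivd (chr2:118861744-118861993, plus strand): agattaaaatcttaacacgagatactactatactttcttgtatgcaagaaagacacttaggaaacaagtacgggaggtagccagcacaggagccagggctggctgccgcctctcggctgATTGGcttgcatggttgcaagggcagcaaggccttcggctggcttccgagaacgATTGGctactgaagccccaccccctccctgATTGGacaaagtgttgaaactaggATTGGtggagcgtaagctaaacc
Mccc1 (chr3:36000679-36000928, minus strand): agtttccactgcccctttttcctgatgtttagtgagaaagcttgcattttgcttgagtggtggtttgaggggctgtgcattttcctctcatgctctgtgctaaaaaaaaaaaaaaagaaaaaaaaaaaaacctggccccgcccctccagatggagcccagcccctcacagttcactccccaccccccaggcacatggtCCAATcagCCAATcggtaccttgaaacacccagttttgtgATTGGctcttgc

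Promoter entries were found for 9 of the 10 genes, 11 entries in all, with Dbt not matched. The repeat of 2 AGGTCA copies with 1 free base between them, the form bound by PPARG with its partner RXR and a subset of the windows with AGGTCA, was in 0 of the 11 windows and in 0.0335% of the 32851 promoter windows of the same length. AGGTCA alone was in 1 of the 11, the first Bckdhb entry, against 14.0% of all windows. CCAAT was in 5 of the 11, those of Bckdhb, Bckdk, Ivd, Mccc1 and Mccc2, against 33.8% of all windows. These are matches of letters in a short window and are given as a description. Bcat2 is also the protein-coding gene next to Fgf21 on chromosome 7, so it lies beside the deleted locus, while Bckdha, Bckdk and Acadsb lie 427, 859 and 900 protein-coding genes away on that chromosome.

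The arrays had median signals of 145 to 179 in the Fgf21-KO groups and 174 to 192 in the WT groups, with 47.6% to 51.0% of probes detected. Probes were read from 39.4 to 40.7 beads on average on Fgf21-KO arrays and from 36.0 to 38.9 on WT arrays, without overlap, and a run or chip that goes with genotype cannot be told apart from genotype. The Fgf21 probe was detected on 1 of the 4 arrays of each Fgf21-KO group and on all 4 of each WT group. Adipocyte markers were tested for 11 of 12 genes, of which Adipoq, Plin1, Cidec, Lipe, Pnpla2, Lep, Slc2a4, Car3 and Retn were detected on all 16 arrays. A pair of pools stood apart in markers of other tissues. WT rosiglitazone pool 1 had a summed normalized signal of 87890 over 6 of 8 smooth muscle markers, against 14345 to 24609 in the other 7 pools, and 2833 over 6 of 8 epithelial markers, against 427 to 1529. Its 11 adipocyte markers summed to 202047, against 236768 to 258610 in the others. Fgf21-KO vehicle pool 2 had a sum of 36295 over 7 of 9 liver markers, against 2360 to 9311. Drug results in WT mice and genotype results under rosiglitazone rest on the first of these pools, and drug results in Fgf21-KO mice and genotype results under vehicle on the second, and values without them are given for the results named below that they moved most. In bulk fat, fewer cells of a type and less RNA per cell cannot be told apart.

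Across the 8 genes tested, each standing by its brightest probe, signals were higher under rosiglitazone for 7 of 8 in either genotype. Of all 9543 genes, 49.0% were higher in Fgf21-KO fat and 55.5% in WT fat. The median log2 difference of the 8 genes, rosiglitazone minus vehicle, was 0.26 in Fgf21-KO fat and 0.22 in WT fat, where the medians over all 9543 genes were -0.005 and 0.032. Between genotypes, 6 of 8 were lower in Fgf21-KO fat under either treatment, with medians of -0.15 under rosiglitazone and -0.13 under vehicle against -0.046 and -0.008 over all genes. Of all 9543 genes, 5325 were lower under rosiglitazone and 4929 under vehicle. No probe of the 10 genes passed an adjusted p of 0.05 in any of the 7 comparisons of limma's moderated test. In 6 of them percent called was 0 over all 13759 probes, and for genotype averaged over treatments it was 0.0218%, or 3 probes, so the whole design made almost no calls. At an unadjusted p under 0.05, the shares of all probes were 5.64% for the drug in Fgf21-KO fat, where 1 of 10 probes of these genes passed, and 8.31% in WT fat, where 2 did. For genotype they were 15.8% under rosiglitazone and 4.77% under vehicle, with 0 of 10 in both. With the drug effect averaged over genotypes the share was 8.75% and 5 of 10 passed, and with genotype averaged over treatments it was 14% and 1 of 10 passed. By the brightest probe of each gene, 4 of 8 were higher at that p for the drug averaged, against 457 higher and 361 lower of 9543 genes. For genotype averaged, 0 of 8 passed by the brightest probe, against 540 higher and 839 lower of all genes.

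**Figure D1:**
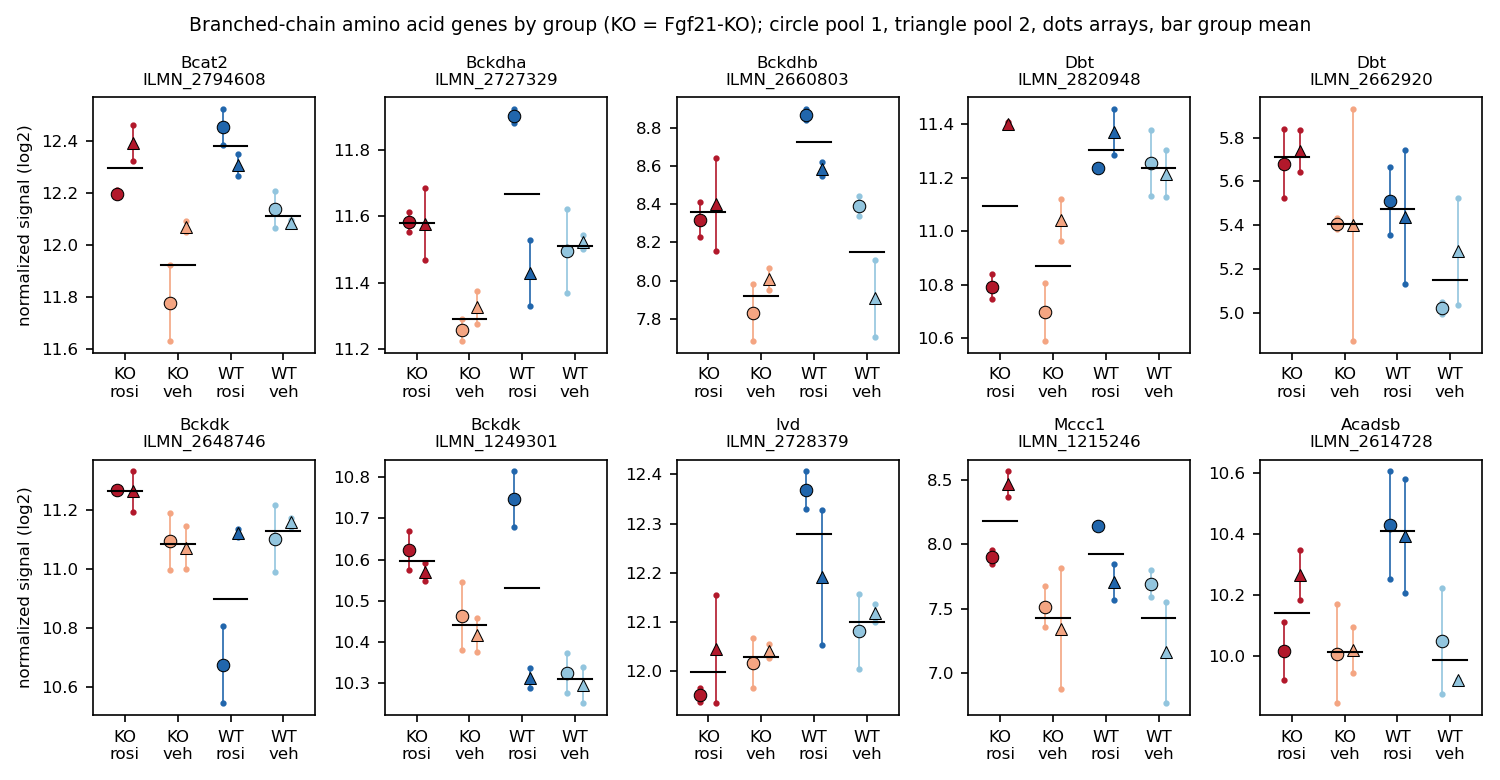
Normalized log2 signal of each tested probe (y axis, a scale of its own per panel) in Fgf21-KO and WT fat under rosiglitazone (rosi) or vehicle (veh); circles and triangles are pools 1 and 2, small dots the 2 arrays of a pool, and bars group means. Bcat2, Bckdhb and Mccc1 have both rosiglitazone pools above both vehicle pools in each genotype, while the Bckdk panels disagree in WT rosiglitazone pool 1.

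Bcat2 encodes the mitochondrial aminotransferase that starts the pathway. Its probe ILMN_2794608 had log2 levels of 12.20 and 12.39 in Fgf21-KO rosiglitazone pools, against 11.78 and 12.07 in Fgf21-KO vehicle pools. In WT fat it had 12.45 and 12.31 under rosiglitazone and 12.14 and 12.08 under vehicle. Drug pools were thus above vehicle pools in each genotype, and the pool of lowest level was an Fgf21-KO vehicle pool. The log2 difference was 0.37 ± 0.16 (SE) in Fgf21-KO fat and 0.27 ± 0.16 in WT fat. Averaged over genotypes it was 0.32, a fold of 1.25, with a 95% interval of 0.055 to 0.58 and limma adjusted p = 0.524. Without the pools that stood apart, the averaged difference was 0.36.

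Bckdha and Bckdhb encode the alpha and beta subunits of the decarboxylase, the E1 component of the dehydrogenase complex. Bckdha, probe ILMN_2727329, was at 11.58 in both Fgf21-KO rosiglitazone pools, against 11.26 and 11.33 under vehicle. In WT fat Bckdha had 11.90 and 11.43 under rosiglitazone, against 11.50 and 11.52 under vehicle. The Fgf21-KO groups did not overlap, whereas in WT fat only pool 1 of the drug group was above the vehicle pools, and that is the pool rich in smooth muscle and epithelial markers. The Bckdha difference was 0.29 ± 0.18 (SE) in Fgf21-KO fat and 0.16 ± 0.18 in WT fat, and without WT rosiglitazone pool 1 the WT value was -0.08. The part of the other tissues in this result was not tested.

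Bckdhb was among the larger differences. Probe ILMN_2660803 had levels of 8.32 and 8.40 in Fgf21-KO rosiglitazone pools and 7.83 and 8.01 in Fgf21-KO vehicle pools. WT rosiglitazone pools had 8.87 and 8.58, and WT vehicle pools 8.39 and 7.91. Drug pools were above vehicle pools in both genotypes, although the WT vehicle pools lay 0.48 apart. The log2 difference was 0.44 ± 0.20 (SE) in Fgf21-KO fat and 0.58 ± 0.20 in WT fat, folds of 1.35 and 1.49, and the WT difference was 0.34 without WT vehicle pool 2. Averaged over genotypes it was 0.51, with a 95% interval of 0.17 to 0.84, an unadjusted p of 0.0093 and limma adjusted p = 0.513, and it was 0.48 without the pools that stood apart. With no background correction, the averaged difference was 0.36 and the WT difference 0.42.

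Dbt encodes the E2 core of the complex, which passes the acyl group to coenzyme A. Its bright probe ILMN_2820948 had 10.79 and 11.40 in Fgf21-KO rosiglitazone pools, against 10.70 and 11.04 in Fgf21-KO vehicle pools. The WT pools had 11.24 and 11.37 under rosiglitazone and 11.26 and 11.22 under vehicle. Fgf21-KO pools were therefore wide apart and WT pools close together, and drug and vehicle pools overlapped in both genotypes. The drug difference was 0.23 ± 0.23 (SE) in Fgf21-KO fat, which became -0.08 without Fgf21-KO rosiglitazone pool 2 and 0.40 without the pools that stood apart, and 0.07 ± 0.23 in WT fat. The other tested Dbt probe, ILMN_2662920, lay near background, with 5.68 and 5.74 in Fgf21-KO rosiglitazone pools, 5.41 and 5.40 in Fgf21-KO vehicle pools, 5.51 and 5.44 in WT rosiglitazone pools, and 5.02 and 5.28 in WT vehicle pools. It was detected on 3, 1, 2 and 0 of the 4 arrays of these groups, in that order. Since it passed the detection filter largely through the drug groups, its higher values there are given as a description, and its part in the counts of 10 probes should be read so. Its drug difference averaged over genotypes, 0.31, was 0.13 with the authors' normalized values.

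Bckdk encodes the kinase that inactivates the complex. Probe ILMN_2648746 had 11.27 and 11.26 in Fgf21-KO rosiglitazone pools, against 11.09 and 11.07 in Fgf21-KO vehicle pools. WT rosiglitazone pools had 10.68 and 11.12, and WT vehicle pools 11.10 and 11.16. A second Bckdk probe, ILMN_1249301, had 10.62 and 10.57 in Fgf21-KO rosiglitazone pools, 10.46 and 10.42 in Fgf21-KO vehicle pools, 10.75 and 10.31 in WT rosiglitazone pools, and 10.32 and 10.30 in WT vehicle pools. In WT rosiglitazone pool 1 the first probe was at its lowest level of all 8 pools and the second at its highest. The probes shared a difference of 0.18 ± 0.17 and 0.16 ± 0.17 (SE) in Fgf21-KO fat but differed in sign in WT fat, at -0.23 ± 0.17 for the first and 0.22 ± 0.17 for the second. Without that pool, both WT values were close to 0, at -0.01 and 0.003. When WT rosiglitazone pool 2 was left out instead, the first probe passed, at -0.46 with limma adjusted p = 0.0485 for the drug in WT fat, and at 0.59 with adjusted p = 0.0182 for Fgf21-KO against WT under rosiglitazone. In those fits 2697 and 3393 probes passed over the whole array, against 0 with all pools; pool 1 was then the lone WT drug sample, assumed to vary like the other groups. The direction for Bckdk in WT fat is therefore uncertain.

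In the leucine branch, Ivd encodes isovaleryl-CoA dehydrogenase. Its probe ILMN_2728379 had 11.95 and 12.04 in Fgf21-KO rosiglitazone pools, against 12.02 and 12.04 in Fgf21-KO vehicle pools. WT fat had 12.37 and 12.19 under rosiglitazone and 12.08 and 12.12 under vehicle. The Ivd drug difference was -0.03 ± 0.13 (SE) in Fgf21-KO fat, where the pools overlapped, and 0.18 ± 0.13 in WT fat, where they did not. Without WT rosiglitazone pool 1 the WT value was 0.09. Ivd was the member with the lowest drug value in Fgf21-KO fat.

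Mccc1 encodes the biotin-carrying subunit of methylcrotonyl-CoA carboxylase, the step after Ivd. Probe ILMN_1215246 had 7.90 and 8.46 in Fgf21-KO rosiglitazone pools and 7.52 and 7.34 in Fgf21-KO vehicle pools. In WT pools it had 8.14 and 7.71 under rosiglitazone and 7.69 and 7.16 under vehicle. Drug pools lay above vehicle pools in each genotype, by a narrow margin in WT fat, 7.71 against 7.69. The difference was 0.75 ± 0.27 (SE) in Fgf21-KO fat, a fold of 1.68 with limma adjusted p = 0.866, and 0.50 ± 0.27 in WT fat, a fold of 1.41. Leaving out single pools moved the first between 0.47 and 1.03 and the second between 0.23 and 0.76. Averaged over genotypes it was 0.63, with a 95% interval of 0.17 to 1.09, the largest of the 10 probes, and it was 0.47 without the pools that stood apart. Its pools also differed most among themselves, by a median of 0.48 within a group, against 0.18 over all probes. The probe was of low signal, 211 to 465 before normalization, and the size of its differences depended on the processing. The averaged difference was 0.39 with the authors' normalized values, and the Fgf21-KO difference was 0.48 with no background correction.

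Acadsb encodes the short/branched-chain acyl-CoA dehydrogenase that acts on the isoleucine skeleton. Its probe ILMN_2614728 had 10.02 and 10.27 in Fgf21-KO rosiglitazone pools, against 10.01 and 10.02 in Fgf21-KO vehicle pools. WT pools had 10.43 and 10.39 under rosiglitazone, against 10.05 and 9.92 under vehicle. Both WT drug pools were above every other pool. The drug difference was 0.43 ± 0.14 (SE) in WT fat, with a 95% interval of 0.09 to 0.76, an unadjusted p of 0.0196 and limma adjusted p = 0.571, and it was 0.41 without the pools that stood apart. In Fgf21-KO fat it was 0.13 ± 0.14. The 2 genotypes' drug responses were set against each other directly for Acadsb, and that difference, -0.30 ± 0.20, had limma adjusted p = 0.827. Hibch, which encodes the hydrolase of the valine branch, had non-normalized signals of 121 to 165 in Fgf21-KO rosiglitazone arrays, 122 to 135 in Fgf21-KO vehicle arrays, 154 to 160 in WT rosiglitazone arrays and 131 to 184 in WT vehicle arrays. These were mostly below the median of the same array, and the probe was detected on 1 array.

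Drug and vehicle pools did not overlap, with the drug higher, for 7 of the 10 probes in Fgf21-KO fat, against 22.9% of all probes. In WT fat this held for 6 of 10, against 17.6%. It held in both genotypes for 4 of 10, those of Bcat2, Bckdhb and Mccc1 and the dim Dbt probe, against 5.16% of all probes. The dim Dbt probe is in each of these counts, although it passed the detection filter largely through the drug groups. The bright Dbt probe is in none of them. The genotypes have separate pools, so these counts share no sample, but probes of one pathway are not independent. Averaged over genotypes, the probes under an unadjusted p of 0.05 were those of Bckdhb, Mccc1, Bcat2 and Acadsb and the dim Dbt probe, with limma adjusted p-values of 0.513 to 0.535. Without WT rosiglitazone pool 2, 2 of the averaged values passed, 0.34 for Bckdha with adjusted p = 0.0422 and 0.58 for Bckdhb with adjusted p = 0.0472; in that fit 1833 probes passed over the whole array, against 0 with all pools, and the pool rich in other tissue markers was the lone WT drug sample. Without WT rosiglitazone pool 1 instead, the averaged Bckdha value was 0.10.

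**Figure D2:**
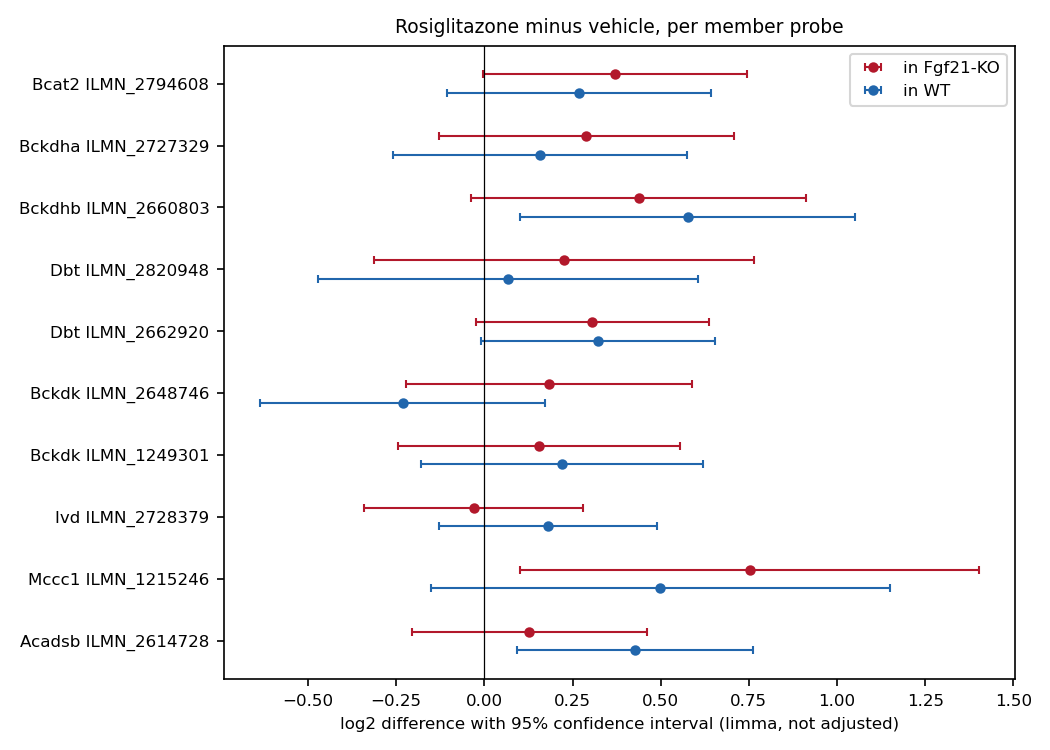
Log2 difference, rosiglitazone minus vehicle, of each tested probe (x axis) with unadjusted 95% intervals from limma, red for Fgf21-KO fat and blue for WT fat. Nearly all points lie right of 0, the Mccc1 value in Fgf21-KO fat at 0.75, and intervals excluding 0 belong to Mccc1 in Fgf21-KO fat and to Bckdhb and Acadsb in WT fat.

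The genotype comparison was made within each treatment and shares its pools with the drug comparison, so the values are given side by side. Under vehicle, Fgf21-KO minus WT was -0.37 ± 0.23 (SE) for the bright Dbt probe, -0.23 ± 0.20 for Bckdhb, -0.22 ± 0.18 for Bckdha and -0.19 ± 0.16 for Bcat2. It was between -0.07 and 0.13 for Ivd, Mccc1, Acadsb and both Bckdk probes. Under rosiglitazone it was -0.37 ± 0.20 for Bckdhb, -0.28 ± 0.13 for Ivd and -0.27 ± 0.14 for Acadsb. Bcat2 and Bckdha were then at -0.09 each, the bright Dbt probe at -0.21 and Mccc1 at 0.26. The dim Dbt probe ran the other way, at 0.25 under vehicle and 0.24 under rosiglitazone, and Bckdk ILMN_2648746 was at 0.37 under rosiglitazone. All 10 probes had limma adjusted p-values of 0.337 or higher. Without the pools that stood apart, the values under rosiglitazone were 0.15 for Bckdha, -0.01 for Bcat2, -0.22 for Bckdhb, 0.47 for Mccc1, -0.19 for Ivd, -0.25 for Acadsb and 0.14 for Bckdk ILMN_2648746, so that of Bckdha turned in sign. Under vehicle they were -0.54 for the bright Dbt probe, -0.33 for Bcat2, -0.32 for Bckdhb and -0.25 for Bckdha. Mccc1 under rosiglitazone was at -0.02 without Fgf21-KO rosiglitazone pool 2. For Bcat2, beside the deleted Fgf21 gene, the interval ran from -0.56 to 0.19 under vehicle and from -0.46 to 0.29 under rosiglitazone.

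Fgf21-KO pools were below WT pools without overlap for 3 of 10 probes under rosiglitazone (Bckdhb, Ivd, Acadsb), against 24.1% of all probes. Under vehicle this was so for 5 of 10 (Bcat2, Bckdha, the bright Dbt probe, 1 Bckdk probe and Ivd), against 22.5%. Ivd alone among the 10 was lower under both, against 8.65% of all probes, so under rosiglitazone and under both treatments the members' shares were near the background. The number of genes lower in Fgf21-KO fat under vehicle was 6 of 8 with quantile normalization and 8 of 8 with median scaling, which itself put the median of all genes at -0.08; 6 of 8 were below that median under either scaling. Genotype averaged over treatments gave -0.30 ± 0.14 for Bckdhb, -0.29 ± 0.16 for the bright Dbt probe and -0.18 ± 0.09 for Ivd. The 1 probe under an unadjusted p of 0.05 was the dim Dbt probe, higher in Fgf21-KO fat by 0.24 ± 0.10 with limma adjusted p = 0.341, and Bckdk ILMN_2648746 was at 0.16 ± 0.12. The dim Dbt probe lay near background, and its value was 0.09 with the authors' normalized values. Its non-normalized signals ran lower in Fgf21-KO arrays, 119 to 160 against 150 to 172 under vehicle and 148 to 181 against 163 to 189 under rosiglitazone.

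**Figure D3:**
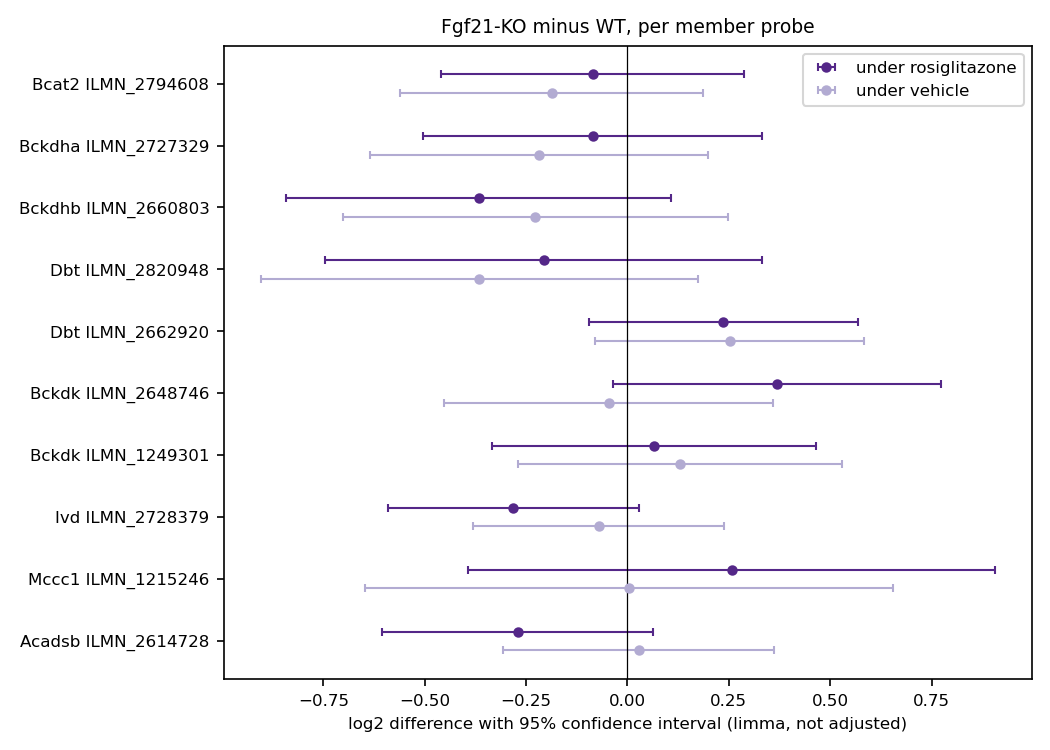
Log2 difference, Fgf21-KO minus WT, of each tested probe (x axis) with unadjusted 95% intervals from limma, dark purple under rosiglitazone and light purple under vehicle. All intervals include 0; the bright Dbt probe has the lowest vehicle value, -0.37, and Bckdk ILMN_2648746 the highest rosiglitazone value, 0.37.

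Whether the drug response depended on Fgf21 was tested as the difference between the genotypes' responses. It ran from -0.30 for Acadsb to 0.41 for Bckdk ILMN_2648746, with SEs of 0.18 to 0.39 and limma adjusted p-values of 0.827 or higher. At an unadjusted p under 0.05, 0 of 10 probes passed, against 4.95% of all probes. For Bcat2 the interval of this difference was -0.43 to 0.63, for Bckdhb -0.81 to 0.53 and for Mccc1 -0.67 to 1.17.

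Of 27 other genes of the pathway, 22 were tested, and none passed an adjusted p of 0.05 in any comparison. For the drug averaged over genotypes, 18 of 22 were higher with a median of 0.08, and at an unadjusted p under 0.05, 3 were higher (Acat1, Hadhb, Mmab) and 1 lower (Slc7a5). Over all 9543 genes, 52.0% were higher in that comparison, and 457 were higher and 361 lower at that unadjusted p. Acat1, the thiolase that ends isoleucine breakdown, was at 0.44 ± 0.14 (SE). Slc7a5, a subunit of a plasma membrane carrier of large neutral amino acids, was at -0.37 ± 0.13, made up of -0.69 ± 0.18 in Fgf21-KO fat and -0.05 ± 0.18 in WT fat; their difference of -0.64 ± 0.25 had limma adjusted p = 0.827. Dld, the E3 subunit shared with other dehydrogenases, was at 0.29 ± 0.13, with pools of 8.10 and 8.53 in Fgf21-KO rosiglitazone fat against 8.18 and 7.87 under vehicle, and 8.17 and 8.19 in WT rosiglitazone fat against 7.91 and 7.86 under vehicle. Aldh6a1, the dehydrogenase of the valine branch, was at 0.20 ± 0.13. Hibadh, also of that branch, was at 0.14 ± 0.09. Ppm1k, the phosphatase that reactivates the complex, was at 0.07 ± 0.11, Acad8 at -0.09 ± 0.14, Slc25a44, the mitochondrial carrier of branched-chain amino acids, at 0.06 ± 0.15, and the propionyl-CoA carboxylase genes Pcca and Pccb at 0.04 ± 0.12 and 0.01 ± 0.12. Auh and Mut (now Mmut) were not detected often enough to test.

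Bcat1, the cytosolic aminotransferase, differed by genotype more than any of the 10 genes. It had 8.30 and 8.59 in Fgf21-KO rosiglitazone pools, against 9.05 and 8.97 in WT rosiglitazone pools. Under vehicle it had 8.19 and 8.47 in Fgf21-KO pools, against 8.85 and 9.11 in WT pools. All 4 Fgf21-KO pools were below all 4 WT pools, and the averaged difference was -0.61 ± 0.12 (SE), an unadjusted p of 0.00202 with limma adjusted p = 0.153. Over all probes, 14% had an unadjusted p under 0.05 in that comparison, and 8.65% were lower without overlap within each treatment. Klf15, a transcription factor known to induce amino acid catabolic genes in mouse liver and muscle, lay near background, detected on 6 of 16 arrays, with levels of 5.57 and 6.26 in Fgf21-KO rosiglitazone pools, 5.29 and 6.08 in Fgf21-KO vehicle pools, 5.47 and 5.61 in WT rosiglitazone pools and 5.10 and 4.85 in WT vehicle pools.

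The tricarboxylic acid cycle, which takes up the products of the pathway, had 12 of 13 genes higher for the drug averaged over genotypes, with a median of 0.18. Mitochondrial beta-oxidation genes, which share enzymes with the pathway, had 17 of 17 higher in Fgf21-KO fat with a median of 0.37, and 9 of 17 in WT fat with a median of 0.11. Averaged over genotypes they had 15 of 17 higher with a median of 0.24. Brown adipocyte markers then had 5 of 5 with 0.47, and adipocyte markers 5 of 11 with -0.006. The branched-chain genes had 7 of 8 higher with a median of 0.25 in that comparison, against 52.0% of all genes. By pool, the branched-chain genes' median level, each gene centred on its mean over the 8 pools, was 0.02 and 0.15 in Fgf21-KO rosiglitazone fat and -0.24 and -0.11 in Fgf21-KO vehicle fat. It was 0.28 and 0.11 in WT rosiglitazone fat and -0.02 and -0.04 in WT vehicle fat. Adipocyte markers stayed within -0.10 to 0.10 on that scale, lowest in WT rosiglitazone pool 1, where the branched-chain genes were highest. Brown adipocyte markers, rich in mitochondrial genes, were highest in Fgf21-KO rosiglitazone pool 2 and WT rosiglitazone pool 1, at 0.52 in each. In WT rosiglitazone pool 2 they were at -0.21, against -0.24 and -0.19 in WT vehicle pools. That pool was at -0.015 for the tricarboxylic acid cycle, against -0.029 and -0.054 in WT vehicle pools. For beta-oxidation it was at -0.012, against -0.097 and -0.044. In WT fat the rises of these lists thus came largely from WT rosiglitazone pool 1, which stood apart. The part of the cell type differences in the drug values was not tested.

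**Figure D4:**
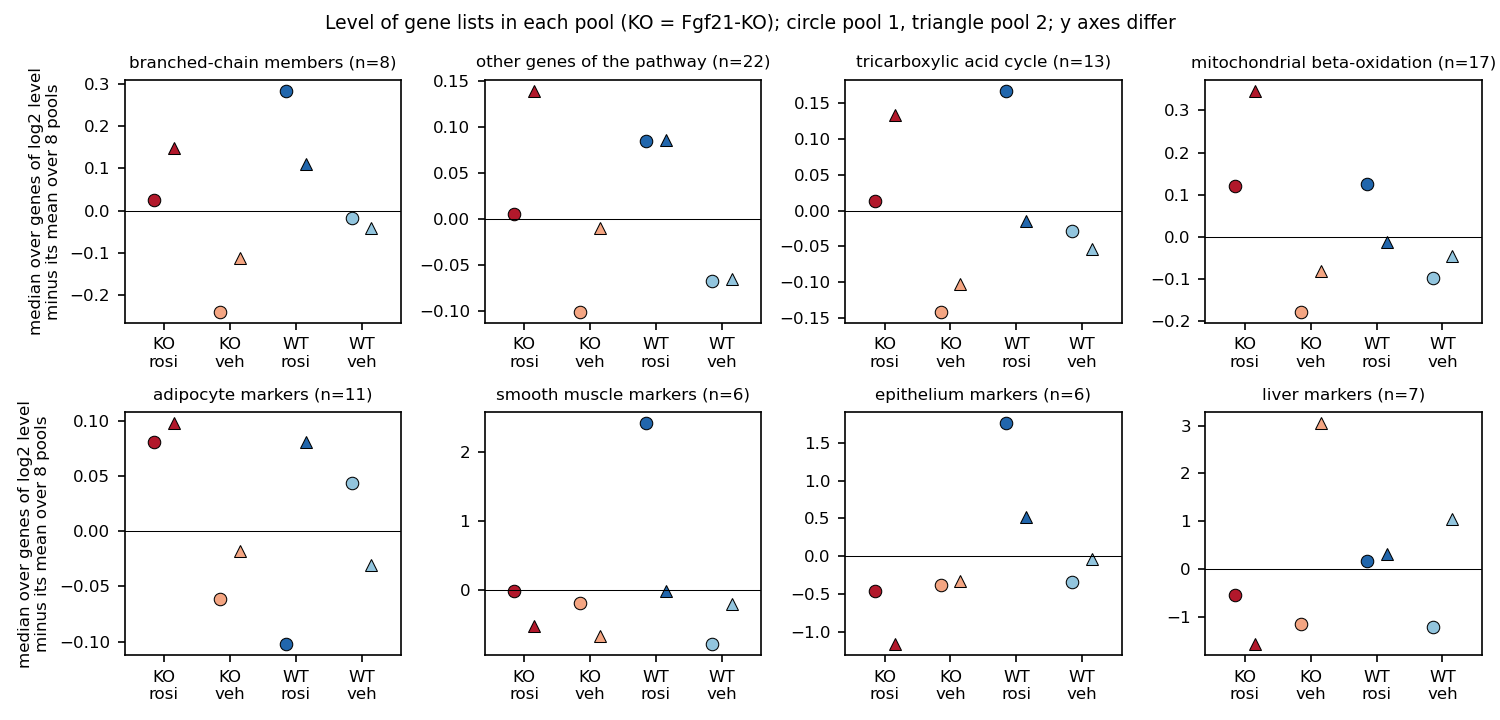
Median over the genes of a list of the log2 level minus that gene's mean over the 8 pools (y axis, a scale of its own per panel), by group and pool (circle pool 1, triangle pool 2). Branched-chain genes run from -0.24 in an Fgf21-KO vehicle pool to 0.28 in WT rosiglitazone pool 1, where smooth muscle markers stand at 2.42, and liver markers stand at 3.05 in Fgf21-KO vehicle pool 2.

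The genes outside the pathway whose pattern over the 8 pools was most like that of the 8 genes were Prelid3b, Eci2, Gng5, Serf1 and Cox7a2. Likeness was the mean absolute difference between standardised pool values, which was 0.274 to 0.304 for these genes and 0.881 at the median of all genes tested. Among the 8 genes themselves it was 0.271 for Bcat2, the most typical, and 0.892 for Bckdk, the least. Each of the 8 genes is part of the mean profile used as the reference, which lowers its own value relative to genes outside. Eci2, an isomerase of unsaturated fatty acid oxidation, had drug differences of 0.37 in Fgf21-KO fat and 0.46 in WT fat. Cox7a2, a subunit of cytochrome c oxidase, had 0.34 and 0.20. These genes were chosen by this measure, so their values are a description.

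The authors' deposited table of comparisons lists 2 of the 10 genes, Bckdha and Dbt. For Bckdha, the authors' deposited table gives a mean signal of 2324 in Fgf21-KO vehicle and 3202 in WT vehicle fat, a ratio of 0.726 with p = 2.53e-07. For Dbt the authors' deposited table gives 1783 and 2687 in the same order, a ratio of 0.663 with p = 1.03e-10. Its WT vehicle means equal means of the non-normalized signals within 0.1% for 2460 of 2472 matched rows. The Fgf21-KO vehicle arrays were dimmer throughout, with a median ratio to WT vehicle of 0.835 over the probes tested. After normalization between arrays the Bckdha fold was 0.860 and the Dbt fold 0.776, neither past the threshold over pools. For rosiglitazone over vehicle, the authors' deposited table gives Bckdha ratios of 1.185 in Fgf21-KO and 1.304 in WT fat, with VAMPIRE p = 0.00247 and 0.000836. For Dbt the authors' deposited table gives 1.141 and 1.186, with VAMPIRE p = 0.0151 and 0.0192. After normalization between arrays the folds were 1.22 and 1.11 for Bckdha and 1.17 and 1.05 for the bright Dbt probe. None of these passed the threshold over pools.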

How the data were processed

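RNA of epididymal fat was measured on 16 single-colour Illumina bead arrays. Columns of the deposited non-normalized table are, per the file headers, an average signal (intensity, linear scale), a detection p-value and a bead number. A deposited normalized table equals the deposited series matrix. The deposited statistics table gives, per the file headers, group mean intensities, a ratio of group means and a VAMPIRE p-value, over all arrays of a group. The sources used here do not give the normalization method. The 64 other per-sample columns were not used.

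Groups, pools and repeat arrays came from the sample titles. No 2 arrays were identical. Non-normalized signals were background-corrected with limma 3.58.1 in R 4.3.3 (nec by detection p, offset 16). Quantile normalization and the log2 followed, and avearrays gave the mean of each pool's 2 arrays. A probe was tested if its detection p reached 0.05 on 4 or more of the 16 arrays. Genes were named by the platform annotation, 23978 probes having a symbol and 23962 of these matched by Entrez ID; where 1 value a gene was needed, its probe of highest mean log2 level was used. One model with 4 group means was fitted to all probes (lmFit, eBayes; 4 residual and 2.74 prior degrees of freedom), two-sided, with Benjamini-Hochberg adjustment over all probes tested and a threshold of 0.05. Differences run Fgf21-KO minus WT and drug minus vehicle, and the interaction is the Fgf21-KO response minus the WT response. The fit was tested on simulated data. The number of pools, 2 a group, limits the precision.

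The genes and lists were chosen with earlier results of these data known. Named were all 10 genes with every probe, 13 other genes of the pathway where tested, other pathway genes under an unadjusted p of 0.05 in the averaged drug comparison (chosen after their values were seen), and the 5 genes of most similar pattern. Marker lists were adipocyte, smooth muscle, epithelium, liver, skeletal muscle, brown adipocyte, macrophage, endothelium, mesothelium and mast cell. Alternatives changed the background correction, scaling, source of values, probe filter, technical repeats, variance model, groups in the fit, probe per gene and a replicate term, and left out pools. The gene table's assembly, GRCm38.p6, was used for names, neighbours and promoters; the array files' build is not given in the sources used here.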

Additional observations from a re-analysis of the deposited data

How the results depend on the processing

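None of the medians of the 8 genes for the drug or for genotype changed sign under any alternative, while the interaction median did. With median scaling in place of quantile normalization, the medians were 0.16 for the drug in Fgf21-KO fat, -0.40 and -0.22 for genotype under rosiglitazone and vehicle, -0.034 for the interaction and -0.31 for genotype averaged; that scaling moved the median of all genes to -0.22 for genotype under rosiglitazone, -0.15 for the interaction and -0.14 for genotype averaged, relative to which the 8 genes were at -0.18, 0.12 and -0.17. Without both pools that stood apart, an alternative chosen after seeing the data, the medians were 0.36 for the drug in Fgf21-KO fat and 0.22 for the interaction. With the mean of a gene's tested probes, the genotype medians were -0.086 under rosiglitazone and -0.064 under vehicle. Leaving out each pool in turn gave medians of 0.21 to 0.38 (drug, Fgf21-KO), 0.17 to 0.37 (drug, WT), -0.26 to -0.039 (genotype, rosiglitazone), -0.21 to -0.07 (genotype, vehicle), -0.086 to 0.17 (interaction), 0.22 to 0.32 (drug averaged) and -0.20 to -0.11 (genotype averaged). The number of probes past the threshold over the whole array moved more. For the drug in WT fat, genotype under rosiglitazone, genotype under vehicle and genotype averaged, in this order, it was 0, 0, 0 and 3; 2, 1, 3 and 6 with no background correction and with the authors' normalized table; 1, 5, 2 and 13 with an offset of 50; 1, 1, 2 and 9 with probes detected on all 16 arrays; 2, 13, 3 and 40 with trend and robust fitting. Median scaling gave 1 for the drug in WT fat, 57 for genotype under rosiglitazone and 26 for genotype averaged. No filter gave 5 and leaving out both pools 15 for genotype averaged, and a fit of the groups compared gave 2 for genotype under rosiglitazone. With arrays as samples and the pool as a random block, it was 13 and 61 for the drug in Fgf21-KO and WT fat, 654 and 41 for genotype under rosiglitazone and vehicle, 22 for the interaction, 20 for the drug averaged and 536 for genotype averaged. Leaving out each pool gave 0 to 0 for the drug in Fgf21-KO fat and for genotype under vehicle, 0 to 2697 for the drug in WT fat, 0 to 3393 for genotype under rosiglitazone, 0 to 1698 for the interaction, 0 to 1833 for the drug averaged and 0 to 2749 for genotype averaged, each high without WT rosiglitazone pool 2; the cause was not tested. With the replicate block, 0 probes passed for genotype averaged. The differences between pool 1 and pool 2 of a group correlated between groups at -0.10 to 0.27, above 0.1 in 2 of 6 pairs. Whether pools of the same number share a batch was not tested. Of 1293 values of the 10 probes under alternatives, 1250 kept their sign, and 4 passed the threshold, all without WT rosiglitazone pool 2 and given in the results.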

Other observations

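Mast cell markers had median log2 differences, rosiglitazone minus vehicle, of 0.16 in Fgf21-KO fat and 0.77 in WT fat, with 6 of 6 genes higher in both. Of all 9543 genes, 49.0% were higher in Fgf21-KO fat and 55.5% in WT fat. Mesothelium markers were at -0.70 by their median in Fgf21-KO fat (0 of 7 higher) and -0.25 in WT fat (1 of 7 higher). Macrophage markers were at -0.11 in Fgf21-KO and -0.42 in WT fat, and endothelium markers at 0.09 and 0.005. On the centred scale, macrophage markers were at -0.36 in WT rosiglitazone pool 1, which stood apart, and at 0.05 in pool 2. Both WT vehicle pools were at 0.23. Skeletal muscle markers were tested for 4 of 9 genes, at 0.08 and 0.27. On the centred scale they were at 0.45 in WT rosiglitazone pool 1 but -0.55 in pool 2, against -0.35 and -0.16 in WT vehicle pools. No marker of these lists passed an adjusted p of 0.05 in limma. Genes of the pyruvate dehydrogenase complex and its regulators, the parallel route for pyruvate, had medians of 0.27 in Fgf21-KO fat and -0.16 in WT fat over 9 genes.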
